A study of Mus musculus with 2 samples.

Results

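The 32 genes described here encode the enzymes and carriers of mitochondrial fatty acid oxidation and of ketone body metabolism. They were chosen by name and function, as the carnitine shuttle, the beta-oxidation spiral, electron transfer, propionate conversion and ketone enzymes. Their ratios did not enter the rule, but earlier results of these data were known when it was made, so their shared direction is no independent evidence. All 32 had a probe that passed the filter on dim signals, out of 16698 measured genes in all. The RNA came from kidneys of male CD-1 mice and was hybridised to 2 Agilent arrays, each read in red and green. The HMPA group ate AIN-93G chow containing 0.2% adenine by weight (2 g per kg) plus 2% HMPA by weight. HMPA stands for the phenolic compound 3-(4-hydroxy-3-methoxyphenyl)propionic acid. The adenine group ate the same adenine chow without HMPA. Both diets lasted 1 week, from 7 weeks of age by the protocol, whereas the sample titles give 12 weeks of age and 5 mice without saying whether that is per diet or pooled. Adenine feeding is a chemical model of chronic kidney disease, both groups received it, and no mice without adenine were analysed here, so no value shows what adenine itself changed.

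On array 1 the HMPA sample carried the red dye (Cy5) and the adenine sample the green dye (Cy3), and on array 2 the dyes were swapped. Since no label ties an array to its own animals or extract, the pair counts as 1 RNA sample per diet read in both dye orientations. The sample titles call the arrays exp1 and exp2 without saying whether these used separate animals or extracts. Animals are thus not counted as replicated, and no p-value is given. Values are normalised spot intensities in arbitrary units, and each ratio is HMPA over adenine alone on the log2 scale. The number after ± is how far either array lay from the mean of both. A gene is called higher or lower where its mean ratio was at least 2-fold and each array showed at least 1.5-fold in the same direction. Intensities of different genes are not comparable, because each probe binds with its own strength.

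Fatty acids enter the mitochondrion as carnitine esters, are cut stepwise to acetyl-CoA by the beta-oxidation enzymes, and pass their electrons through a flavoprotein to the respiratory chain. Odd-numbered and branched chains leave propionyl-CoA, which is converted to a citrate cycle intermediate. The proximal tubule of the kidney draws most of its energy from this pathway and also burns ketone bodies, and PPARA with its partner RXR is a well-known activator of the genes.

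Promoter stretches are shown for the members whose start-site region holds a match to the type of element that PPARA and RXR bind. The element searched was a direct repeat with 1 base between the copies, AGGTCANAGGTCA, on both strands, with at most 2 mismatches, from 250 bases before to 50 after the RefSeq start site (build GRCm38.p6). A window was found for 28 of the 32 members, and 4 of the 28 (14.3%) held a match, beside 1190 of 27025 genes with a window (4.40%). Capitals mark the match.
Echs1, chr7:140116468-140116528, minus strand: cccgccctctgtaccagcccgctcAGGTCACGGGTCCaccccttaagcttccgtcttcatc
Etfa, chr9:55512284-55512344, minus strand, match on the opposite strand: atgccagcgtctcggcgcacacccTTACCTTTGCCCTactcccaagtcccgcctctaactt
Slc25a20, chr9:108662134-108662163, plus strand: ctgaatgtAGGTGAAAGGTCGgcggagccg
Pcca, chr14:122534319-122534348, plus strand: cttgacgaGGGTGAGAGGTCAgcagccggc

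The match began 83 bases before the start site of Echs1, 77 before that of Etfa and 1 before that of Pcca, and at base 7 after that of Slc25a20. The element TCAAGGTCA, bound by estrogen-related receptors, had no match without mismatch in the 28 windows, beside 126 of the 27025 genes (0.466%). These matches are descriptions of letters and not of binding. All 4 members that held a match had ratios above 0 on both arrays. Etfa and Pcca were called higher in HMPA kidney and Echs1 and Slc25a20 were not, and no test of a difference between them was made.

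The arrays carried 47 probes for the 32 genes, spread over 16 chromosomes, and 43 of these probes passed the filter on dim signals. A probe that spans far more than its own 60 bases on the genome (mm9) reads RNA from joined exons, and 5 such probes of 4 members are shown because they report spliced transcript. The 2 other probes of Oxct1 are among them, while the probe that represents Oxct1 lies in 1 piece.
Eci1, chr17:24574515-24575912, plus strand: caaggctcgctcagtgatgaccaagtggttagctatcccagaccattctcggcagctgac
Etfa, chr9:55312637-55330109, minus strand: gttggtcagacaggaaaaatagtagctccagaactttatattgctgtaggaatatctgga
Oxct1, chr15:4051863-4078876, plus strand: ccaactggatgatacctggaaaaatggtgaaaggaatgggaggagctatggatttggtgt
Oxct1, chr15:4051159-4051822, plus strand: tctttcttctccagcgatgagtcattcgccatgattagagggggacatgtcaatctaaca
Pcca, chr14:123212448-123276023, plus strand: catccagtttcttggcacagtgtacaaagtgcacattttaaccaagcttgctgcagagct

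The oxidation and ketone genes were, as a group, higher in HMPA kidney than in kidney on adenine alone. Of the 32 genes, 19 were called higher and 0 lower, beside 6.64% of all measured genes called higher and 7.72% called lower. All 32 had a ratio above 0 on both arrays, which held for 35.9% of measured genes. In every one of the 32, both HMPA intensities lay above both adenine intensities, which held for 34.4% of measured genes. At least 1.5-fold on both arrays was reached by 26 members, beside 10.5% of measured genes. Every member was above background in all 4 channels, and among the genes that were, 7.16% were called higher. The median log2 ratio of the members was 1.25 (1.23 on array 1 and 1.09 on array 2), beside -0.04 over all measured genes. The middle 50% of members lay between 0.85 and 1.58, and that of all genes between -0.37 and 0.27. Ranked among all measured genes, the lowest member stood at percentile 85.2 and 26 members stood in the top 10%.

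**Figure D1:**
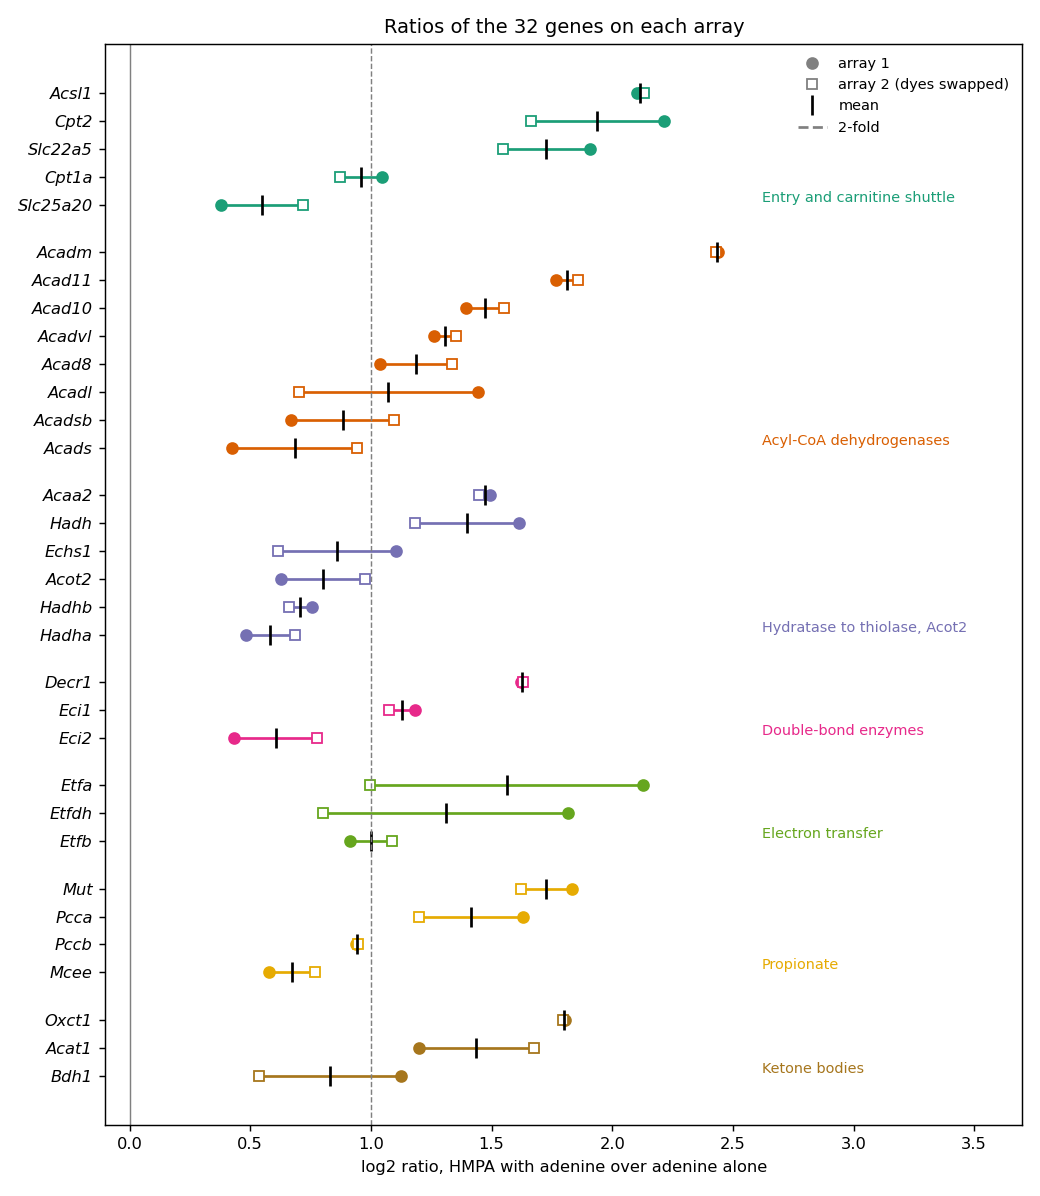
Log2 ratio of HMPA over adenine alone (horizontal axis) for the 32 genes, grouped by role, with a filled circle for array 1, an open square for array 2, a black mark for their mean and a dashed line at 2-fold. All points lie above 0, and the means run from 0.55 for Slc25a20 to 2.44 for Acadm.

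Array 1 gave the higher ratio in 16 members and array 2 in the other 16. The distance of an array from the mean had a median of 0.13 over the members and 0.11 over all measured genes.

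The carnitine entry step had the highest median ratio of the groups by role, 1.73 over 5 genes, of which 3 were called higher. On array 2 alone its median of 1.55 was below the 1.68 of the ketone enzymes. Acsl1, the ligase that activates long-chain fatty acids to acyl-CoA, had intensities of 8831 and 9758 in HMPA kidney, against 2056 and 2229 on adenine alone. Its log2 ratio was 2.12 ± 0.01, and its other 2 probes gave 1.75 and 1.77. All 3 Acsl1 probes thus met the rule of size. A mean of at least 4-fold was reached by Acsl1 and Acadm, 2 members, and by 5 members with the scanner software's own ratios and 1 with the mean over probes or with median centring. Cpt2, which turns acylcarnitine back into acyl-CoA inside the mitochondrion, had 14753 and 12685 in HMPA kidney, against 3182 and 4005 on adenine alone (1.94 ± 0.27). Slc22a5, the plasma membrane carnitine transporter, had 2024 and 1881 in HMPA kidney, against 539 and 644 on adenine alone (1.73 ± 0.18). The other Slc22a5 probe gave 1.33. For all 3 genes the HMPA intensities were at least 2.92 times the adenine intensities of the same array.

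The remaining carnitine genes had smaller ratios. Cpt1a, the rate-limiting transferase at the outer membrane, had 5294 and 5505 in HMPA kidney, against 2566 and 3010 on adenine alone. Its ratio of 0.96 ± 0.09 fell just short of the rule, on a probe printed 9 times with an SD between repeat spots of 0.19 on array 1 and 0.21 on array 2. The other Cpt1a probe, which was dimmer, gave 0.82. Slc25a20, the carrier that exchanges acylcarnitine for carnitine across the inner membrane, had 245 and 267 in HMPA kidney, against 188 and 163 on adenine alone. Its ratio was 0.55 ± 0.17, the lowest of the 32 here, whereas Hadha was lowest under 4 of the 9 alternatives and Bdh1 on array 2 alone. The ratio of Cpt1a was 0.98 below that of Cpt2 (1.17 below on array 1 and 0.79 on array 2), so the outer and the inner transferase differed in ratio by more than the distance between arrays in either gene.

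Of the 8 acyl-CoA dehydrogenases, which take the first pair of electrons from the fatty acid, 6 were called higher, with a median of 1.25. Acadm, the medium-chain enzyme, had 22303 and 25364 in HMPA kidney, against 4110 and 4704 on adenine alone. Its ratio of 2.44 ± 0.005, or 5.41-fold, was the highest of the 32, and its probe lies at chr3:153585670-153585729 (mm9). Acadvl, the very-long-chain enzyme of the inner membrane, had 21389 and 21190 in HMPA kidney, against 8909 and 8290 on adenine alone (1.31 ± 0.05). Acadl, the long-chain enzyme, had 2669 and 1990 in HMPA kidney, against 982 and 1222 on adenine alone. Its arrays differed, with 1.44 on array 1 and 0.70 on array 2, so its mean of 1.07 ± 0.37 depended on array 1. Acads, the short-chain enzyme, had 345 and 447 in HMPA kidney, against 257 and 232 on adenine alone (0.68 ± 0.26) and was not called. The chain-length enzymes did not move by the same factor: Acads was 2.01 below Acadm on array 1 and 1.49 below it on array 2.

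Among the dehydrogenases of other substrates, Acad11 and Acad10, which take part in the breakdown of hydroxylated fatty acids, were both called higher. Acad11 had 622 and 684 in HMPA kidney, against 183 and 188 on adenine alone (1.81 ± 0.05). Acad10 had 805 and 848 in HMPA kidney, against 306 and 289 on adenine alone (1.47 ± 0.08). Acad8, the isobutyryl-CoA dehydrogenase of valine breakdown, had 536 and 598 in HMPA kidney, against 261 and 237 on adenine alone (1.19 ± 0.15). These 3 genes were above their adenine intensities on both arrays by at least 2-fold. Acadsb, the short branched-chain enzyme of isoleucine breakdown, had 539 and 619 in HMPA kidney, against 338 and 289 on adenine alone (0.88 ± 0.21) and was not called. A second Acad11 probe was not well above background.

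The steps after the dehydrogenases had the smallest median, 0.83 over 6 genes, and 2 were called higher. Acaa2, the thiolase that releases acetyl-CoA from medium-chain substrates, had 12972 and 13975 in HMPA kidney, against 4602 and 5115 on adenine alone. Its ratio was 1.47 ± 0.02, and its 10 repeat spots had an SD of 0.21 on array 1 and 0.20 on array 2. Hadh, the hydroxyacyl-CoA dehydrogenase of short and medium chains, had 8010 and 6739 in HMPA kidney, against 2621 and 2970 on adenine alone (1.40 ± 0.21). Both genes met the rule on each array taken alone. Echs1, the short-chain enoyl-CoA hydratase, had 6660 and 5882 in HMPA kidney, against 3099 and 3837 on adenine alone (0.86 ± 0.24) and was not called.

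The trifunctional protein carries the hydratase, dehydrogenase and thiolase steps for long chains, and neither of its subunits was called. Hadha, the alpha subunit, had 623 and 697 in HMPA kidney, against 446 and 434 on adenine alone (0.58 ± 0.10). Hadhb, the beta subunit, had 4177 and 4661 in HMPA kidney, against 2475 and 2950 on adenine alone (0.71 ± 0.05). Hadha was below Hadhb by 0.27 on array 1 and above it by 0.02 on array 2, so the arrays gave the subunits no common order. The genes are direct neighbours among protein-coding genes in the RefSeq annotation. Another Hadha probe, dim in part of the channels, gave 0.08, and averaging the probes lowered Hadha to 0.33. Acot2, a thioesterase that frees fatty acid from acyl-CoA in the mitochondrion, had 228 and 263 in HMPA kidney, against 148 and 134 on adenine alone (0.80 ± 0.17). Its near-identical cytosolic paralog Acot1 had 17603 and 15633 in HMPA kidney, against 4692 and 5974 on adenine alone (1.65 ± 0.26), and cross-binding between them could not be checked, so the value of Acot2 is uncertain.

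**Figure D2:**
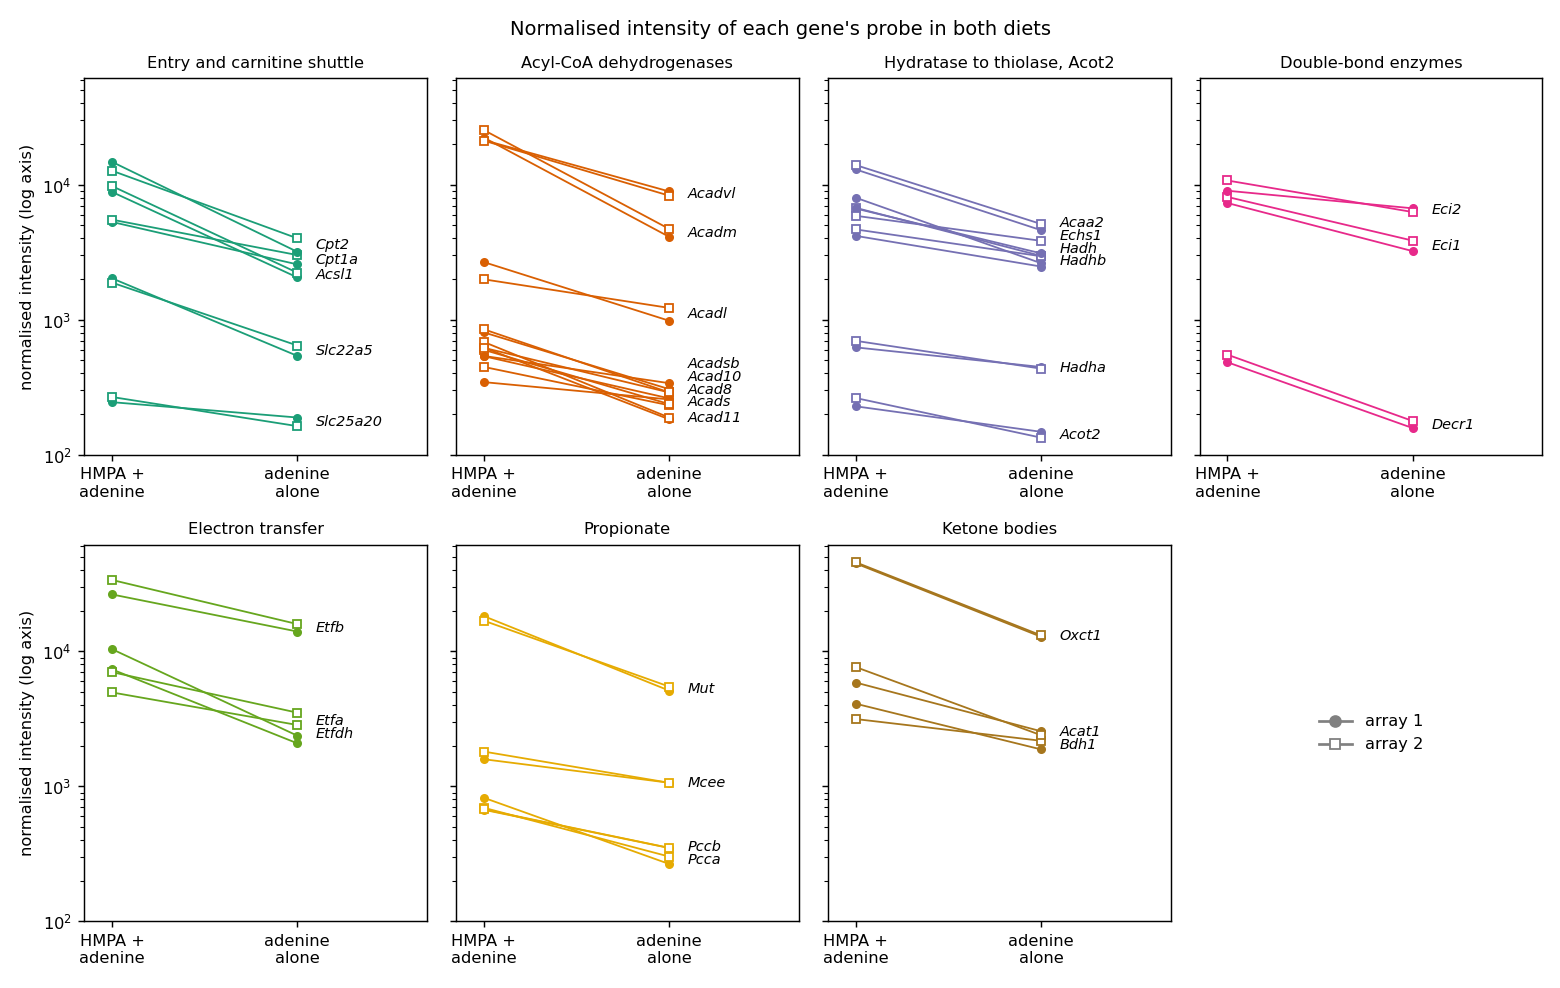
Normalised intensity (log axis, arbitrary units) of each of the 32 genes in HMPA kidney (left) and kidney on adenine alone (right), in panels by role, with a line for each gene on each array (filled circles for array 1, open squares for array 2). Every line is higher at the HMPA end, and the heights of different genes are not comparable.

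Unsaturated fatty acids need extra enzymes to move or remove their double bonds, and 2 of these 3 genes were called higher. Decr1, the dienoyl-CoA reductase, had 484 and 550 in HMPA kidney, against 157 and 177 on adenine alone. Its ratio was 1.63 ± 0.01 and its second probe gave 1.28. Eci1, the main enoyl-CoA isomerase of the mitochondrion, had 7310 and 8108 in HMPA kidney, against 3217 and 3848 on adenine alone (1.13 ± 0.05). Eci2, the isomerase found in mitochondria and peroxisomes, had 9015 and 10737 in HMPA kidney, against 6679 and 6266 on adenine alone (0.60 ± 0.17). Eci2 was thus above its adenine intensities on both arrays but by less than the rule requires, and 0.52 below Eci1 on average.

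The electron transfer flavoprotein and its oxidoreductase pass electrons from all acyl-CoA dehydrogenases to ubiquinone, and this group differed most between arrays. Etfa, the alpha subunit, had 10382 and 7017 in HMPA kidney, against 2374 and 3515 on adenine alone. Its ratio was 2.13 on array 1 and 0.997 on array 2, a mean of 1.56 ± 0.57 with the widest array distance of the 32. Etfdh, the oxidoreductase, had 7351 and 4963 in HMPA kidney, against 2084 and 2849 on adenine alone. Its ratio was 1.82 on array 1 and 0.80 on array 2 (1.31 ± 0.51), and a second probe gave 0.97. Etfa and Etfdh were called higher, but array 2 taken alone would call neither. Etfb, the beta subunit, had 26401 and 33794 in HMPA kidney, against 14026 and 15924 on adenine alone. Its mean of 0.999 ± 0.09 was the closest to the rule from below, as Acadl at 1.07 was from above. Etfa exceeded Etfb by 1.22 on array 1, while on array 2 it was 0.09 below it, so an order of the subunits' ratios was not measured.

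Propionate conversion had a median of 1.18 over 4 genes, of which 2 were called higher. Mut, methylmalonyl-CoA mutase, the vitamin B12-dependent enzyme at the end of this route, had 18234 and 16872 in HMPA kidney, against 5122 and 5485 on adenine alone (1.73 ± 0.11). Its other measured probe gave 1.68. Pcca, the biotin-bearing subunit of propionyl-CoA carboxylase, had 823 and 694 in HMPA kidney, against 266 and 302 on adenine alone (1.41 ± 0.21). Both were above the 2-fold level on each array. Pccb, the other carboxylase subunit, had 671 and 675 in HMPA kidney, against 350 on both arrays on adenine alone. Its arrays gave 0.94 and 0.95, the smallest array distance of the 32 and still under the rule. Mcee, the epimerase between carboxylase and mutase, had 1589 and 1810 in HMPA kidney, against 1064 and 1063 on adenine alone (0.67 ± 0.09). The ratio of Pcca was above that of Pccb by 0.69 on array 1 and 0.25 on array 2.

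The ketone enzymes had a median of 1.44 over 3 genes, of which 2 were called higher. Oxct1, the transferase that commits ketone bodies to oxidation outside the liver, had 44844 and 45723 in HMPA kidney, against 12836 and 13152 on adenine alone. Its ratio was 1.80 on both arrays, and the 2 probes printed above that cross introns had means of 1.72 (1.35 on array 1 and 2.09 on array 2) and 1.75 (1.34 and 2.16). Acat1, the thiolase that splits or joins acetoacetyl-CoA, had 5878 and 7654 in HMPA kidney, against 2561 and 2394 on adenine alone (1.44 ± 0.24). Oxct1 and Acat1 were called higher on the mean and on each array. Bdh1, the dehydrogenase between hydroxybutyrate and acetoacetate, had 4096 and 3153 in HMPA kidney, against 1879 and 2176 on adenine alone (0.83 ± 0.29). Its second probe gave 0.84, so both Bdh1 probes lay under the rule.

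**Figure D3:**
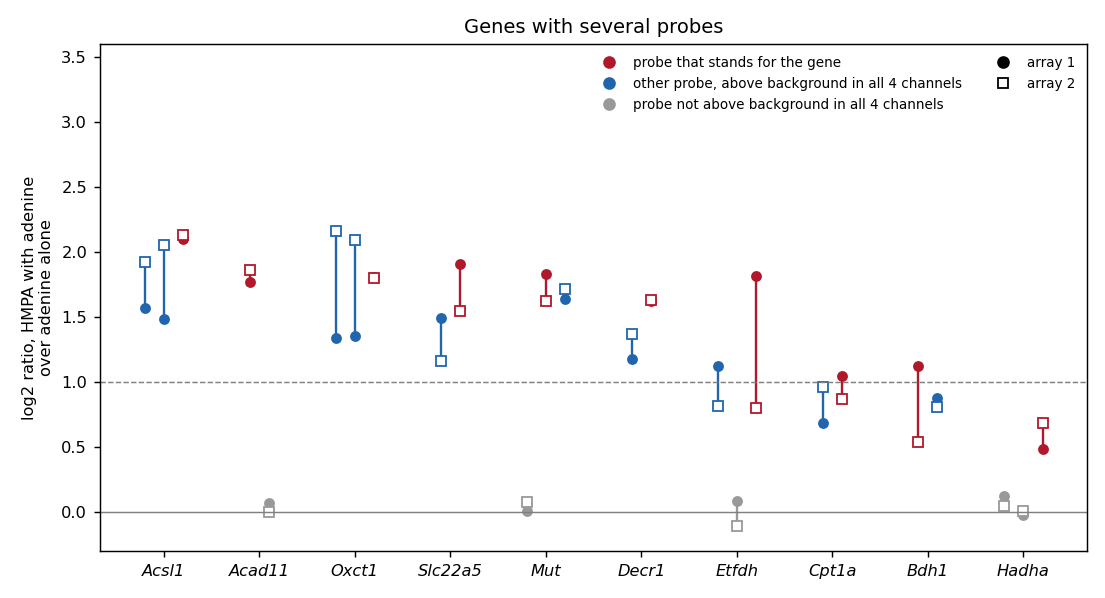
Log2 ratio of HMPA over adenine alone for every probe of the 10 members with several probes, on array 1 (filled circles) and array 2 (open squares), with grey for probes not above background in all 4 channels and a dashed line at 2-fold. The means of the 3 Oxct1 probes lie within 1.72 to 1.80, whereas the 2 grey Hadha probes lie at -0.01 and 0.08, below the probe that stands for the gene at 0.58.

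Of the 9 measured ketone genes outside the members (of 11 listed), 4 were called higher and 0 lower, with a median of 0.97. Those called higher included Aacs, which activates acetoacetate for lipid synthesis (2.25), the cytosolic dehydrogenase Bdh2 (1.54) and the monocarboxylate carrier Slc16a7 (1.38).

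Further genes of mitochondrial oxidation and branched-chain breakdown showed the same direction. Of 41 listed, 40 were measured, 21 were called higher and 0 lower, and the median was 1.00. The highest were the fatty acid transport protein Slc27a2 (2.63), the medium-chain ligase Acsm1 (2.59), the valine-route enzyme Aldh6a1 (2.54), the fatty acid receptor Cd36 (2.07), glutaryl-CoA dehydrogenase Gcdh (1.98) and the valine-route hydrolase Hibch (1.86). Not every gene of fatty acid handling was above its adenine level: Acsl4, a ligase that favours arachidonic acid, was at -0.68, Acsl5 at -0.49 and the fatty acid-binding protein Fabp4 at -0.99. Among the long-chain ligases, which share the activation step, Acsl1 and Acsl3 (1.45) were called higher, while Acsl4 and Acsl5 lay below 0 and were not called.

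The list of peroxisomal oxidation genes, which also holds acyl-CoA thioesterases of the cytosol such as Acot1 and Acot12, had a median of 1.72, with 18 of 24 measured genes called higher and 0 lower (26 listed). The highest were the thioesterase Acot12 (3.50), the racemase Amacr (3.23), the bifunctional enzyme Ehhadh (2.79), the bile acid side-chain oxidase Acox2 (2.64), Slc27a2 and Acot4 (2.48). The PPARA axis was mixed, with 7 of 20 measured genes called higher, 1 lower, and a median of 0.57 (23 listed). Called higher were the pantetheinase Vnn1 (2.77), the fatty acid hydroxylases Cyp4a10 (2.55) and Cyp4a14 (2.16), the tubule factor Hnf4a (1.90), the mitochondrial deacetylase Sirt3 (1.85), Ppara itself (1.22) and the receptor Esrra (1.12). Ppara and Esrra lost the call with median centring (0.94 each), and Esrra was at 0.60 with the mean over probes, its second probe being at 0.08. The 3 kept probes of Hnf4a ranged from 0.58 to 1.90, with a mean over probes of 1.20. The lipid droplet gene Cidec was called lower (-2.30), and it is also on the list of fat cell markers. Of the respiratory chain and citrate cycle genes, 7 of 22 were called higher and 0 lower, with a median of 0.89. The median of this list was 1.12 on array 1 and 0.70 on array 2, and 19 of the 22 were above 0 on both arrays. The highest were Sdha (1.66), Ndufs1 (1.42), Suclg1 (1.37), Cyc1 (1.33), Sdhb (1.33) and Sucla2 (1.27). The 3 Sdha probes ranged from 0.02 to 1.66 and their mean of 0.999 missed the rule, as did Sdhb on array 2 alone (0.96). All these lists were named with earlier results of these data known, so their directions are no independent evidence.

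Markers of the proximal tubule, the segment richest in these enzymes, moved with the members. All 17 measured markers (18 listed) were above background and called higher, with a median of 2.59 and a range from 1.24 for Slc5a12 to 5.03 for Slc7a13. Slc27a2 and Hnf4a, named above, are among these markers, and none of the 32 members is. The summed intensity of the markers was 387121 to 403074 in HMPA kidney and 61753 to 78647 on adenine alone. That of the 32 members was 250102 to 255799 in HMPA kidney and 89883 to 98443 on adenine alone. Such sums are set mostly by the brightest probes of a list, so sums of different lists are not comparable. None of the 32 members reached the marker median, and 16 of the 32 lay below the lowest marker. Acadm passed the marker median when array 1 was left out (marker median 2.18) or when probes were averaged (2.20). In bulk tissue, fewer cells of a type and less RNA per cell cannot be told apart.

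Lists of markers of other cells were called lower, higher or neither. Of 8 fibroblast markers, 7 were called lower and 0 higher (median -1.83), with a sum of 14784 to 18442 in HMPA kidney and 98660 to 109564 on adenine alone. All 10 macrophage and leukocyte markers were called lower (median -2.05), with a sum of 10933 to 12520 in HMPA kidney and 75168 to 76866 on adenine alone. With the mean over probes, Ptprc was at -0.54 and Csf1r at -0.79, and both missed the rule. Of 9 measured fat cell markers (10 listed), 4 were called lower (median -0.99, and -2.87 with the scanner software's ratios), with a sum of 4734 to 6540 in HMPA kidney and 18609 to 19823 on adenine alone. Adipoq, which marks fat cells, was at -2.18, Lep was not above background, and Plin1 and Ucp1 were not well above background in HMPA kidney. The thick limb and distal tubule markers were called higher in 4 of 8 (median 1.06), with a sum of 76962 to 86333 in HMPA kidney and 43922 to 49217 on adenine alone. Slc12a1, among those called, was at 0.66 with the mean over its probes and missed the rule. Umod, at 0.11 and not called, made up 29933 and 36092 of the adenine sums. Collecting duct markers were called higher in 4 of 8 measured of 9 listed (median 0.98), with a sum of 12846 to 13312 in HMPA kidney and 2919 to 3148 on adenine alone. None of the 6 endothelial markers was called (median -0.09). The 4 measured erythroid markers of 6 listed were called higher (median 3.56), with a sum of 78100 to 82048 in HMPA kidney and 4195 to 6118 on adenine alone. Only 2 of 7 muscle markers were measured, Acta1 and Tnnt2 (median -0.63), and Tnnt2 was not well above background in HMPA kidney. Ckm, Myh6, Myh7, Tnni3 and Myl2 were not above background. The part of any of these cell types in the members' ratios was not tested.

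**Figure D4:**
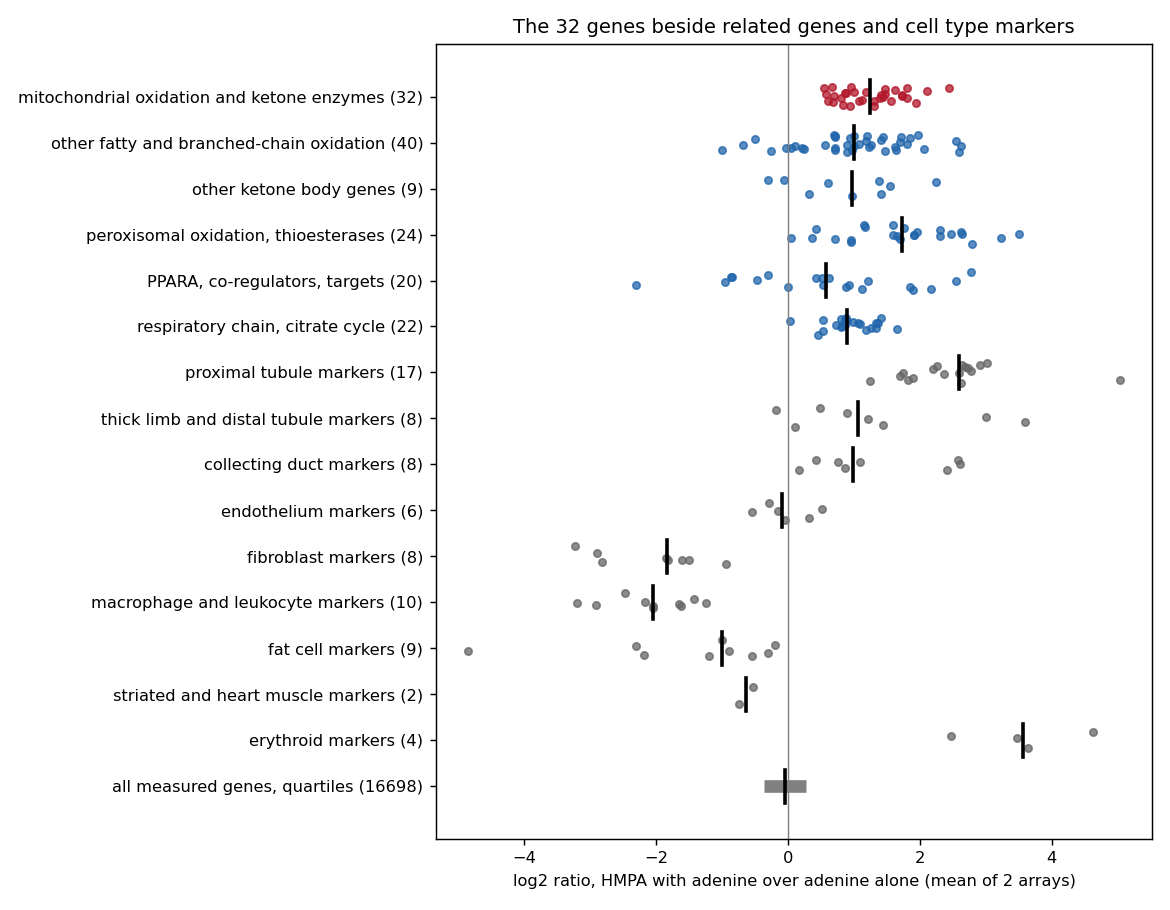
Log2 ratio of HMPA over adenine alone for every measured gene of the members, the related pathways and the cell type markers, with a black bar at each median and, for all measured genes, a grey bar over the middle 50%. The median of the members (1.25) lies below that of the proximal tubule markers (2.59) and above that of all genes (-0.04), and the fibroblast and macrophage lists lie below 0.

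The direction of the members was the same under other ways of processing the arrays. Centring each array on its median in place of loess called 18 members higher, beside 4.49% of all genes, and the scanner software's own ratios called 23, beside 12.2% of all genes. Under median centring the all-gene median moved to -0.22, and the members' median was 1.29 above it, against 1.28 with loess. The split of all called genes moved too, with 27.5% of them higher under median centring and 46.2% with loess. The 15 members that met the rule under all 9 alternatives included Acadm, Acsl1, Cpt2 and Oxct1. Etfa, Etfdh, Acadl and Acad8 were called but lost the call under at least 1 alternative.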

How the data were processed

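Kidney RNA of both diets was hybridised together on each of 2 arrays, counted here as 1 RNA sample per diet in a dye swap. Per the file headers, the authors scanned and quantified the arrays with Feature Extraction 12.2.0.7, whereas the submitters' processing notes name version 9.5. The deposited intensity columns hold each spot's mean signal and its local background median, per the file headers, without normalization. The deposited ratio column holds log10 of red over green after the authors' background subtraction and dye normalization, and the deposited value table equals it within 0.00498 on array 1 and 0.00499 on array 2, with column medians of 0 and no turn for the swap.

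From these, log2 ratios were computed with limma 3.58.1 in R 4.3.3, using normexp background correction with an offset of 50 and loess within each array, with control spots and outlier flags at weight 0 (the software marked 281 and 297 of 43379 gene spots). Red and green intensities were recovered from each ratio and mean level after scaling between arrays, so they include the offset. Repeat spots were averaged, a probe was kept if well above background in the same diet on both arrays, and the brightest kept probe stood for a gene. Well above background were 57.9% and 61.2% of spots in the HMPA channels and 60.9% and 67.9% in the adenine channels, and none was saturated. Tables were handled with Python 3.11.15, numpy 2.4.6, pandas 2.3.3 and matplotlib 3.10.9.

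Positions of probes were taken from the deposited columns (mm9, for which no annotation was used, so exon or UTR is not assigned). Of the 47 member probes, 41 were matched to RefSeq by accession, and 1 member is listed under a newer symbol (Mmut for Mut). Members and lists were chosen with earlier results of these data known. Named genes were all members, up to 6 genes per list that met the rule of size, the largest first, and close paralogs. Acsl4, Acsl5, Fabp4, Ppara, Esrra, Ptprc, Csf1r, Umod and the markers at the ends of a range were named after their values were seen. A few genes that the rule names are not reported here. Alternatives were median centring, an offset of 16, no background correction, the deposited ratios, other filters on dim probes, the mean over probes and each array alone.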

Additional observations from a re-analysis of the deposited data

How the results depend on the processing

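None of the 288 member values under the 9 alternatives changed sign, 268 kept their call, 15 gained one and 5 lost one. The 2 filters on dim probes account for 64 of the values and could not move a member, since all 32 passed them. The members' median of 1.25 was 1.07 with median centring and 1.36 with the scanner software's ratios, and 1.09 to 1.23 on the arrays taken singly. The members called higher numbered 18 to 22 on the single arrays, and 0 were called lower under any alternative. Over all genes, the software's ratios called 2043 higher and 2461 lower, and median centring called 1973 lower, against 1109 and 1289 with loess. The single arrays called 1154 to 1253 higher and 1280 to 1484 lower.

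Without replicate 1, array 2 alone gave 0.997 for Etfa, 0.80 for Etfdh and 0.70 for Acadl, all under the rule. Median centring gave 0.84 for Acadl and 0.85 for Acad8. The cause of these changes was not tested. Etfb met the rule under 5 of 9 alternatives, up to 1.32. Each ratio already pairs the diets within an array. The fat cell median was -1.50 with an offset of 16 and -1.32 without background correction. Signal over background limits the dim members, among them Slc25a20, Acot2, Acads, Decr1, Acad11, Acad8 and Pcca. With an offset of 16 in place of 50, the ratio was 1.86 against 1.63 for Decr1 and 2.03 against 1.81 for Acad11. The software's ratios were 2.19 and 2.31. They also differ in background subtraction and dye normalization, so their gap is not that of the offset alone. Differences between animals could not be assessed.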

Other observations

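Several genes that act beside the oxidation enzymes were not called higher. Cs, citrate synthase, which takes up the acetyl-CoA made by beta-oxidation, had intensities of 13455 and 12499 in HMPA kidney, against 11538 and 13858 on adenine alone. On this probe the groups overlapped and the log2 ratio was 0.04 (0.26 with the scanner software's ratios), while the other Cs probe gave 0.36. Pdk4, the kinase that restrains glucose oxidation when fat is burned, was at 0.43 ± 0.07 and Ppargc1a, a coactivator of mitochondrial genes, at 0.62 ± 0.09, neither called. Plin2 (-0.86 ± 0.23) and Angptl4 (-0.85 ± 0.62), which PPARA is known to activate in liver, were below their adenine intensities on both arrays, whereas Cyp4a10 and Vnn1, also known PPARA targets there, were called higher. Acaa1a and Acaa1b, the near-identical peroxisomal thiolases, had ratios of 0.43 (not called) and 1.92 (called higher), and the 3 probes of Acaa1a ranged from 0.43 to 1.91, so these values are uncertain. These genes were singled out after their values were seen.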
